A study of Mus musculus with 28 samples.

Results

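The ribosomal protein genes were examined as a housekeeping reference for the H3K27ac mark at promoters in NMuMG cells undergoing epithelial-mesenchymal transition (EMT). The members were all protein-coding genes of the mm9 annotation whose symbol is Rpl or Rps followed by a number and an optional a, x or y, together with Rplp0, Rplp1, Rplp2 and Rpsa. This rule took 76 of 22380 protein-coding genes, 45 of the large and 31 of the small ribosomal subunit. Rpl41 was not analysed here.

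NMuMG is a mouse mammary gland epithelial line, here the subclone E9, so all samples come from 1 clone. Cells were harvested untreated (0h), after 4h or 24h of TGF-β at 2 ng/ml with DMSO, the solvent, or after the same times with TGF-β and ERK inhibition (ERKi). For ERKi, 25 µM of UO126, which blocks the ERK kinase MEK, was added 30 min ahead of TGF-β. The study describes the 0h cells as untreated and also counts them as the start of its DMSO time course. ChIP-seq with an H3K27ac antibody gave 3 libraries for each of these 5 conditions. Nothing states that they are separate cultures, so p-values measure only the spread between these samples. The 10 RNA-seq and 3 input samples were not analysed here, and no expression value enters.

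The ribosome consists of a small subunit, which decodes the mRNA, and a large subunit, which joins the amino acids, and each holds ribosomal RNA and many proteins that are needed in near equal amounts. Most of these proteins are encoded by a single functional gene, while the genome also carries many processed copies of their mRNAs. Their mRNAs start with a C followed by an uninterrupted run of pyrimidines, the terminal oligopyrimidine (TOP) tract, through which growth signals control their translation, and H3K27ac marks active promoters and enhancers.

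The start of the transcript is therefore shown first. RefSeq promoter sequences of mouse GRCm38.p6 were matched for 55 of 76 members, and 13 of these had a C at an annotated start followed by at least 4 pyrimidines, which was 23.6% (95% exact binomial interval 13.2 to 37.0%) against 3.09% of 7874 genes with a marked promoter. Within 10 bp of a start such a tract stood in 34 of 55 (61.8%) against 36.9%. The GENCODE starts of mm9 gave lower shares, with 3 of 76 members at the start itself (3.95% against 2.05%) and 28 of 76 within 10 bp (36.8% against 30.9%). The share thus differed between the annotations, which also differed in genome build and in the genes matched. A gene counted with RefSeq if any of its starts had the tract. With GENCODE only the start used by most of its coding transcripts was read. Which of these made the difference was not tested. The following 5 sequences hold the 40 bases before the RefSeq start and the first 20 of the transcript, 5′ to 3′ on the gene's strand in GRCm38.p6, with the pyrimidine tract in capitals. They were chosen because Rps27 was among the highest and Rpl35 among the lowest members described below, Rps6 is the protein phosphorylated by S6 kinase, Rpl15 had the longest tract of the 13 and Rps18 holds a TATA-like stretch.
Rps27, chr3:90213629-90213688, minus strand: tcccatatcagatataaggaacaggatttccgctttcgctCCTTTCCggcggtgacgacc
Rpl35, chr2:39005112-39005171, minus strand: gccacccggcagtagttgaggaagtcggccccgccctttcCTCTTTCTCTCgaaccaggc
Rps6, chr4:86857348-86857407, minus strand: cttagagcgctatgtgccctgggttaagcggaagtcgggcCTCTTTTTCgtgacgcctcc
Rpl15, chr14:18270967-18271026, minus strand: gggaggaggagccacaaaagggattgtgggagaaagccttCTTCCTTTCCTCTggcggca
Rps18, chr17:33955646-33955705, minus strand: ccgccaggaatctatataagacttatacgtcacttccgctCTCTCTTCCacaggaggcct

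Short sequence elements were searched on both strands from 250 bp before to 50 bp after the GENCODE start, in mm9. TCTCGCG, a palindrome-derived element of housekeeping promoters, was found in 14 of 76 members (18.4%, 95% exact binomial interval 10.5 to 29.0%) against 5.76% of all tested promoters with a sequence. The ETS family core CCGGAAG stood in 28.9% against 19.1%, a share just outside the members' interval. The GC box GGGCGG was found in 47.4% of members against 64.1% of all, and the median GC content of these 300 bp was 55.5% against 60.7%. The shares of TATAAA (11.8% against 6.77%), AAGATGG (11.8% against 7.53%), GCGCATG (11.8% against 7.31%), TGACGTC (10.5% against 6.11%), CACGTG (11.8% against 10.3%), CCAAT (34.2% against 38.6%) and the AP-1 site TGAGTCA (3.95% against 3.50%) had member intervals that held the share of all promoters. A match is a description of the letters, not of a bound site. The element of housekeeping promoters is shown in capitals, within 41 bases of the gene's strand in mm9, for 2 members. Rpl26 is shown because it stood high in the lists below, and Rpl23a because it holds the element on the opposite strand. CGCGAGA is the reverse complement, which in Rpl26 overlaps the capitals. A further forward copy in Rpl26, starting 33 bp upstream of the start, was left in lower case.
Rpl26, chr11:68715025-68715065, plus strand: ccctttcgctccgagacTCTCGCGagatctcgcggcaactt
Rpl23a, chr11:77997092-77997132, minus strand: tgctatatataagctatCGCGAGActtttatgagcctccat

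For each library the highest peak with a summit within 1000 bp of a start site of the gene was taken and expressed as its percentile among all peaks of that library, from 0, used for no peak, to 100. Peaks were ranked by the -log10 p and by the fold enrichment over local background that the authors' peak caller gave, and a percentile can show only a change relative to the other peaks of the same library. The libraries held 50445 to 69180 peaks. A peak in at least 8 of 15 libraries was asked of a promoter, which left 11060 promoters and all 76 members. The highest peak was the same by both measures in 98.3% of the 1140 pairs of a member and a library.

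Every ribosomal protein promoter carried an H3K27ac peak in every library, 76 of 76 against 46.3% of all protein-coding genes. Among the 11060 tested promoters, 93.8% had a peak in every library. All 76 also had one when only peaks with a -log10 q of at least 10 were kept. When the window was narrowed to 500 bp on either side, 65 of 76 had a peak in all libraries (40.8% of all genes), and when it ended 100 bp downstream of the start, 47 of 76 (22.2%). The promoters of mitochondrial ribosomal proteins, which build the separate ribosome of that organelle, were likewise marked in all 15 libraries in 76 of 76 cases. The same held for 32 of 32 genes of ribosome biogenesis, 14 of 14 translation factors and other TOP genes, and 13 of 13 other housekeeping genes. Of 7 ribosomal protein paralogs with tissue-restricted or redundant roles, 4 had a promoter peak and 3 had none in any library. Of the epithelial markers Cdh1, Krt7, Krt8 and Krt18 had a peak in all 15 libraries, Cldn4 in 11 and Epcam in 0, and the 6 defining genes of blood, liver, endothelial and glial cells were at 0 in all.

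**Figure D1:**
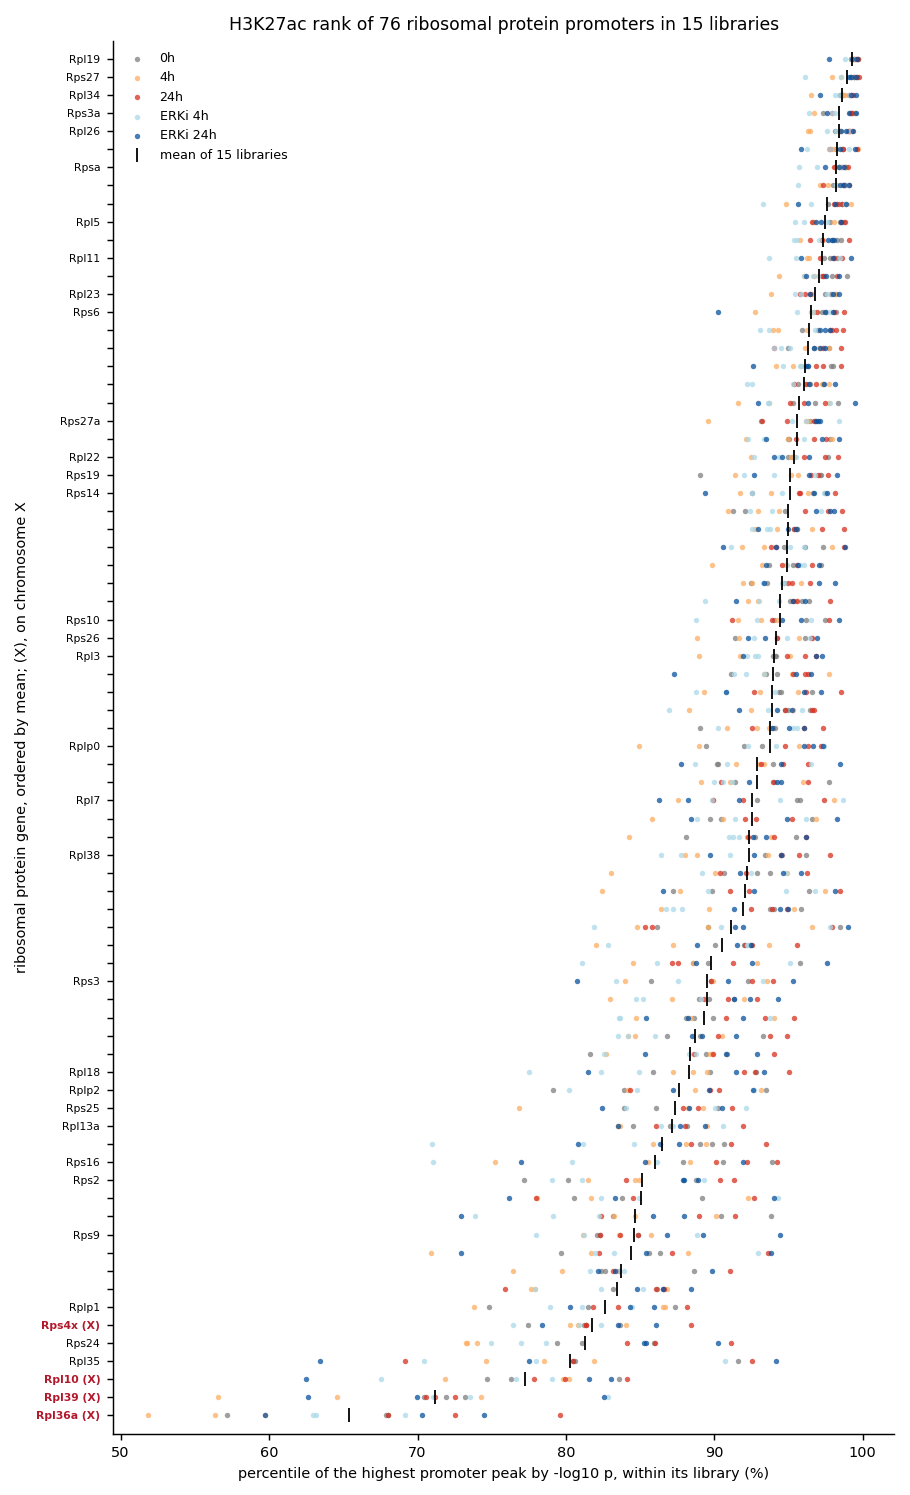
Percentile of the highest promoter peak by -log10 p (x axis, %) for each of the 76 ribosomal protein genes (y axis, ordered by mean, with only the genes of the naming rule labelled); each point is 1 of 15 libraries coloured by condition, and the black bar is the mean. The means span 65.4 to 99.2, and the 4 X-linked genes, in red, are 1st, 2nd, 3rd and 6th from the bottom.

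Ranked by -log10 p, the median member stood at a percentile of 93.8 (median of the members' means over 15 libraries), against 88.4 for all tested promoters. In replicates 1 to 3 the library medians were 93.8, 93.6 and 95.0 for untreated cells, 89.8, 92.9 and 94.2 after 4h of TGF-β, and 94.0, 95.3 and 95.8 after 24h. Under ERKi they were 91.8, 92.2 and 93.3 after 4h, then 94.9, 91.4 and 96.1 after 24h. The libraries of ERKi 4h lay below all those of 0h and 24h, while all other pairs of conditions overlapped. In each of the 15 libraries the members' median exceeded that of all promoters tested, which lay between 87.4 and 90.1. The large subunit genes had a median of 93.8 (n = 45) and the small subunit genes of 92.9 (n = 31). Translation factors and other TOP genes stood at 94.4 (n = 14), the genes of ribosome biogenesis at 91.2 (n = 32), mitochondrial ribosomal proteins at 91.2 (n = 76), and other housekeeping genes such as Actb and Gapdh at 82.9 (n = 13). The 4 paralogs with a peak had a median of 94.0.

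Ranked by fold enrichment, the median member was at 86.3 and the median tested promoter at 88.5. The members' median lay below that of all tested promoters in every library of replicates 1 and 2, and above it in 4 of the 5 libraries of replicate 3, which makes 4 of 15 in all. Across libraries the members' medians ranged from 79.6 to 92.6. They followed the replicate number more than the condition, since replicate 1 gave 79.6 to 85.5, replicate 2 82.9 to 86.4 and replicate 3 90.6 to 92.6, with no overlap between replicate 3 and the others. Fold enrichment divides the pileup at the summit by the local background, and both were high at members. The pileup was 164 fragments ± 40.4 (mean of the 15 library medians, SD) at members and 115 ± 23.8 at all tested promoters, and the background 19.9 ± 5.97 against 11.8 ± 2.73. Ranked by pileup alone, which was solved from the 2 deposited values, members stood at 92.1 and all promoters at 81.9. Mitochondrial ribosomal protein genes had a pileup of 113 ± 26.7, a background of 10.3 ± 2.77 and a fold percentile of 92.9. In the same order, other housekeeping genes had 136 ± 35.3, 21.2 ± 6.36 and 69.5. The genes of ribosome biogenesis had 126 ± 33.4, 15.3 ± 4.28 and 86.5. A high background was thus not particular to members.

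**Figure D2:**
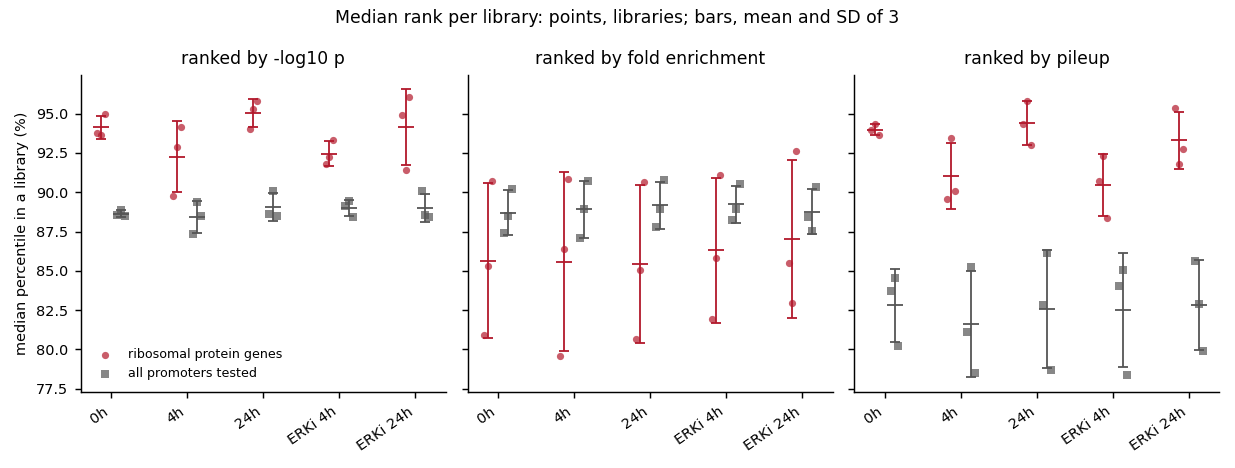
Median percentile in a library (y axis, %) of the 76 ribosomal protein genes (red circles) and of all 11060 tested promoters (grey squares) by condition, ranked by -log10 p, fold enrichment and pileup; points are libraries, bars the mean and SD of 3. By -log10 p and by pileup the red points lie above the grey ones of their library, whereas by fold enrichment the red points range from 79.6 to 92.6 and the grey from 87.1 to 90.8.

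The order of the members was kept between libraries. Across the 76 genes Spearman's rho between libraries of the same condition had a median of 0.804 by -log10 p and 0.890 by fold enrichment, and between libraries that shared neither condition nor replicate number 0.785 and 0.867. Libraries of the same replicate number in different conditions gave 0.862 and 0.915. These are correlations across genes, which are not independent replicates, and libraries share the positions of the same genes. The mean percentiles by -log10 p and by fold enrichment correlated across members with a rho of 0.625, and those by fold enrichment and by pileup with 0.108 (n = 76).

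The highest members by -log10 p were Rpl19 (99.2 ± 0.5, mean and SD over 15 libraries), Rps27 (99.0 ± 0.9), Rpl34 (98.6 ± 0.8), Rps3a (98.4 ± 1.1) and Rpl26 (98.4 ± 1.0). Rpl19, a large subunit protein gene on chr11:97888024-97891806, had percentiles of 99.7, 99.2 and 99.2 in untreated cells, of 99.5, 99.3 and 99.2 after 4h and of 99.7, 99.4 and 99.5 after 24h. With ERKi they were 99.3, 99.3 and 98.8 after 4h, then 99.6, 97.7 and 99.2 after 24h. Its deposited -log10 p lay between 86.7 and 287 and its fold enrichment between 7.28 and 10.3. All 15 libraries thus placed it among the top 3 in 100 of their peaks by -log10 p, and its percentile by fold enrichment was 90.1 ± 2.0. Neighbours among these 5 differed by less than their SD over libraries.

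The lowest members by -log10 p were Rpl36a (65.4 ± 7.6), Rpl39 (71.2 ± 6.7), Rpl10 (77.2 ± 6.1), Rpl35 (80.3 ± 9.0) and Rps24 (81.3 ± 6.0). Rpl36a, Rpl39 and Rpl10, all large subunit genes, lie on chromosome X, as does Rps4x, the X-linked small subunit gene, which was 6th from the bottom at 81.7 ± 3.2. These are the 4 X-linked members. Rpl36a (chrX:131120193-131122601) had percentiles of 67.9, 57.2 and 68.0 in untreated cells, of 59.7, 56.4 and 51.9 after 4h and of 72.5, 68.0 and 79.6 after 24h. With ERKi they were 63.2, 63.0 and 69.2 after 4h, then 74.5, 59.7 and 70.3 after 24h. Even its highest library stayed below the means of all other members but Rpl39 and Rpl10. Rpl39 (chrX:34622515-34625397) had 70.4, 71.9 and 73.2 in untreated cells, 56.5, 64.6 and 74.3 after 4h, and 70.5, 71.2 and 72.5 after 24h. With ERKi it had 71.1, 73.5 and 82.8 after 4h, then 69.9, 62.6 and 82.6 after 24h. Its 4h and ERKi 24h values spread most.

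Chromosome X promoters were low as a whole. By -log10 p the 307 tested X-linked genes had a median of 76.9 and the 10753 autosomal ones of 88.7, and in members the medians were 74.2 (n = 4) and 93.9 (n = 72). By pileup they were 62.5 and 82.5 over all genes and 69.8 and 92.4 in members. By fold enrichment they were 86.8 and 88.5 over all genes, and Rpl39, Rpl36a, Rpl10 and Rps4x took the places 12, 13, 17 and 30 from the bottom among the 76. The pileup at Rpl36a was 39 to 89 fragments and at Rpl39 49 to 107, with a median of 152 over the library medians of all members. The chromosome was not part of the rule by which members were chosen, and copy number was not tested.

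By fold enrichment the lowest members were autosomal. Rpl35 (chr2:38857100-38861144), a large subunit gene, stood at 43.5 ± 20.9 and had percentiles of 35.6, 38.9 and 69.7 in untreated cells, of 32.5, 42.3 and 52.3 after 4h and of 18.1, 29.4 and 73.6 after 24h. With ERKi they were 23.4, 34.1 and 75.4 after 4h, then 32.5, 18.0 and 77.2 after 24h. Replicate 3 was the highest of its condition in all 5, and no condition stood apart from the others. Rpl36 (58.1 ± 12.8), Rpl12 (59.3 ± 6.1) and Rps2 (60.5 ± 10.2) were also low, of which Rpl36 and Rpl12 were named after their values were seen. The median background at the summit of Rpl35 was 33.0 fragments, with a pileup of 144. Rpl13a, whose protein takes part in the translational silencing of inflammatory mRNAs, was highest by fold enrichment (96.5 ± 1.4) and 60th of 76 by -log10 p. It had a median of 4 peaks in its window, and its highest peak was the same by both measures in 5 of 15 libraries.

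**Figure D3:**
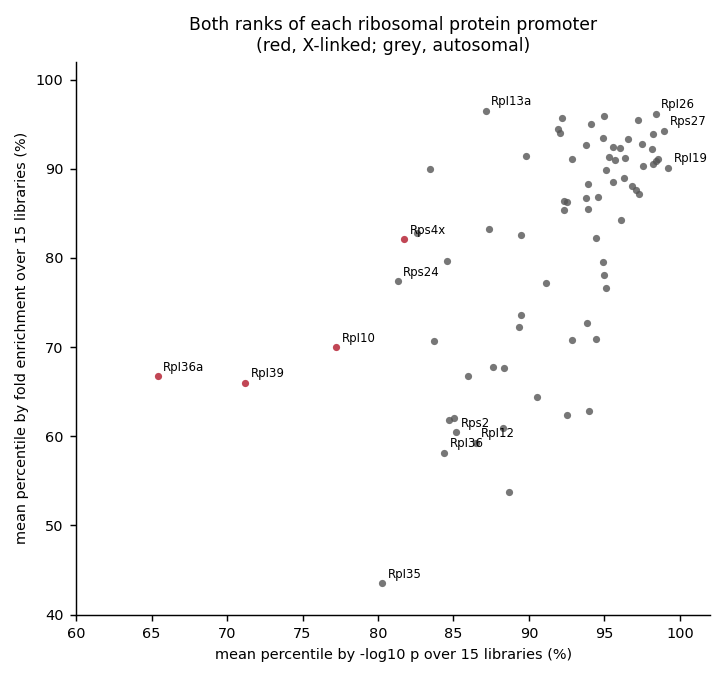
Mean percentile over 15 libraries by -log10 p (x axis, %) against that by fold enrichment (y axis, %), 1 point per ribosomal protein gene, X-linked genes in red. Rpl36a and Rpl39 are lowest along x (65.4 and 71.2), and Rpl35 is lowest along y (43.5).

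Members of a preset list, among them genes with further roles or disease links, varied in level. Rpl5, Rpl11 and Rpl23, which bind Mdm2 and so link ribosome assembly to p53, stood at 97.5, 97.2 and 96.8 by -log10 p over the 15 libraries. Rps6, the S6 kinase substrate, was at 96.5 ± 2.2, with 98.2, 97.3 and 97.5 at 0h and 90.2 as its lowest library, replicate 2 of ERKi 24h. Rpsa, also known as the laminin receptor, was at 98.2 ± 0.9. The stalk proteins Rplp0, Rplp1 and Rplp2, which recruit elongation factors, were at 93.8 ± 3.7, 82.6 ± 4.4 and 87.6 ± 4.7. Rps19, Rps10 and Rps26, 3 of the genes mutated in Diamond-Blackfan anaemia, were at 95.1 ± 2.7, 94.4 ± 2.7 and 94.1 ± 2.4, while Rps24, Rpl5 and Rpl11, given elsewhere in the text, belong to the same disease. Rps14, whose human counterpart is lost in the 5q- syndrome, was at 95.1 ± 2.6. Rpl22, Rpl3, Rps27a and Rps3, a protein with a second role in DNA repair, had 95.3, 94.0, 95.6 and 89.5. Rpl38 (92.3 ± 3.5) and Rps25 (87.3 ± 4.0), studied for the translation of particular mRNAs, were in the lower part of the list.

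The highest peaks at these promoters were wide, and most of their summits lay downstream of the start, as at all tested promoters. The median summit of the highest peak by -log10 p lay 158 bp ± 34.1 downstream of the nearest start site (mean of 15 library medians, SD), against 139 ± 13.3 for all promoters, and 73.5% of member summits were downstream against 71.8%. The peaks had a median width of 1186 bp ± 171 at members and 980 ± 112 at all promoters. Genes of ribosome biogenesis had 1132 ± 161, mitochondrial ribosomal protein genes 985 ± 109 and other housekeeping genes 967 ± 96.5. Their summits were downstream in 72.9%, 70.3% and 85.1%. The summit was downstream in all 15 libraries at 40 members and upstream in all at 2, Rpl7 and Rps2, while 34 varied. These positions moved with the replicate number. The median distance was 171 to 217 bp in the 5 libraries of replicate 1, 156 to 182 in replicate 2 and 90 to 140 in replicate 3, and the median width at members averaged 1393, 1148 and 1016 bp in replicates 1, 2 and 3, with 1121, 939 and 879 bp at all promoters.

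**Figure D4:**
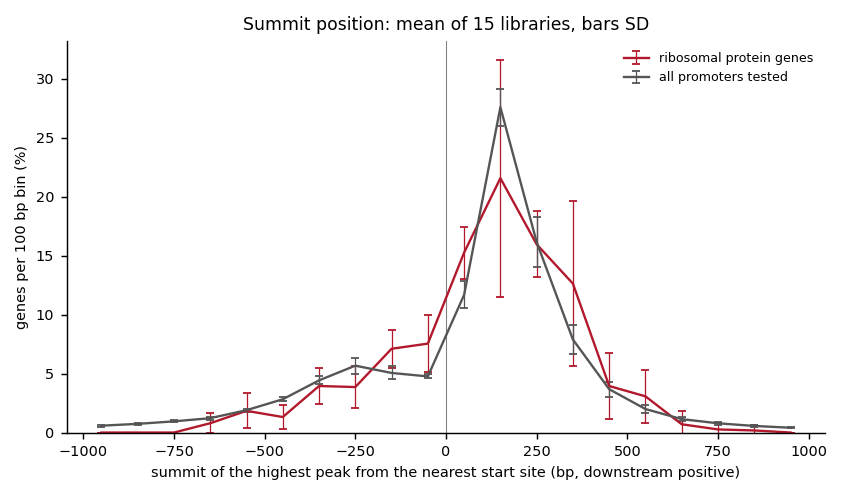
Share of genes (y axis, %, per bin of 100 bp) by distance of the summit of the highest peak from the nearest start site (x axis, bp, downstream positive) for the 76 ribosomal protein genes (red) and all tested promoters (grey); lines are the mean of 15 libraries and bars the SD. Both lines peak 100 to 200 bp downstream of the start.

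Another protein-coding start lay within 1000 bp of a start of 14 of 76 members (18.4%, against 23.0% of all tested promoters). At 12 members, including Rps27 next to Rab13 and Rps18 next to Vps52, the highest peak was also the highest of another gene in all 15 libraries, so its value cannot be assigned to 1 gene. A small nucleolar RNA gene lay inside 30 of 76 members (39.5%) against 1.98% of all. Members are spread over 19 chromosomes, with 14 on chromosome 7. Downstream exons resemble the processed copies elsewhere in the genome, and the authors aligned the reads with the default settings of Bowtie. How many reads at members also match such copies was not tested.

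The first question of the design was what TGF-β does to the mark, for which the treated cells were set against the untreated 0h cells. No group had DMSO without TGF-β at the later times. The share of TGF-β in a difference from 0h, apart from DMSO and time in culture, was therefore not tested. For each comparison limma was fitted to the percentiles of all 11060 promoters, with adjustment over all of them. At 4h against 0h, 0 of 76 members passed an adjusted p of 0.05 by -log10 p, where 0.0542% of all promoters did. At an unadjusted p under 0.05 there were 6 (5.31% of all), all lower at 4h. Ranked by -log10 p, the groups did not overlap at 5 members that were lower at 4h (4.63% of all) and at 0 that were higher (4.48%). By fold enrichment limma called 0 of 76 (0.0723% of all), and 0 at an unadjusted p under 0.05 (4.3% of all). In a bulk sample, a lower signal in all cells and a loss in some cells cannot be told apart.

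By -log10 p the difference was nevertheless below 0 at 63 of 76 members, where 54.1% of all promoters were below 0, with a median of -1.58 percentage points against -0.16. Within replicates 1, 2 and 3 the median difference was -2.70, -0.47 and -0.64, with 62, 46 and 49 members lower. By -log10 p the size rested on replicate 1, whose 4h library had the lowest member median of all (89.8). Without that library the median was -0.56 with 50 of 76 below 0. It was -0.95 without 0h replicate 3. By pileup 74 of 76 were lower (65.0% of all), with a median of -2.63 against -1.06. Within replicates 1, 2 and 3 the median difference by pileup was -3.44, -0.54 and -3.57, with 73, 50 and 69 members lower. By fold enrichment 44 of 76 were lower (45.9% of all), with a median of -0.75, which became 1.20 without 0h replicate 3 and 1.67 without 4h replicate 1. The genes of ribosome biogenesis were lower in 26 of 32 cases by -log10 p (median -2.25), mitochondrial ribosomal proteins in 54 of 76 (-0.97) and TOP translation factors in 10 of 14 (-0.65), and limma called 0 in each list.

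Rps24, a small subunit gene, had the largest difference at 4h. Its percentiles by -log10 p were 79.4, 85.9 and 81.1 at 0h and 73.3, 74.0 and 73.3 at 4h, and 84.1, 86.0 and 91.1 at 24h. The 3 values at 4h were below all those at 0h and 24h, and with ERKi after 4h they were 77.0, 74.9 and 78.7. The difference at 4h against 0h was -8.62 ± 2.91 (SE), with an adjusted p of 0.599 in limma, and 0.274 with the replicate number as a block. Rpl36a followed with -8.36 ± 5.15 (adjusted p = 1.0 in limma). By fold enrichment the largest differences were -11.8 ± 7.18 at Rps16 and -8.40 ± 9.08 at Rpl7 (adjusted p of 1.0 for both in limma).

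When the replicate number was used as a block together with the pileup, a fit added after seeing the data, limma called 1 of 76 members at 4h, Rpl26, where 1.27% of all promoters were called. Its percentiles by pileup were 96.4, 97.4 and 96.7 at 0h and 92.5, 94.8 and 92.7 at 4h. All values at 4h were lower than all at 0h, the difference was -3.51 ± 0.76 (SE without the block), and the adjusted p was 0.0206 with the block and 0.0975 without it. By -log10 p the same gene had 98.2, 98.5 and 99.0 at 0h and 96.3, 96.4 and 98.5 at 4h, which overlapped, with an adjusted p of 0.773 in limma.

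At 24h against 0h limma called 0 of 76 members by -log10 p (0.624% of all) and 0 by fold enrichment (1.33%). At an unadjusted p under 0.05 there was 1 by -log10 p (8.35% of all) and 0 by fold enrichment (10.2%). Ranked by -log10 p, the groups did not overlap at 9 members that were higher at 24h (7.17% of all) and 1 that was lower (5.42%). The difference was below 0 at 20 of 76 members by -log10 p, against 47.5% of all promoters, and the median was 0.66 against 0.12. It was 0.39 without 0h replicate 1 and 1.24 without 24h replicate 1. By fold enrichment 38 of 76 were lower (45.3% of all) and the median was 0.02, with a change of sign without 0h replicate 1 (-2.37) and without 24h replicate 3 (-1.71), and -0.17 with peaks of a -log10 q of at least 10.

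Rps20, a small subunit gene, gave the smallest adjusted p at 24h, for which it was named. Its percentiles by -log10 p were 94.7, 92.1 and 91.3 at 0h, 96.1, 97.6 and 98.6 at 24h and 97.8, 98.0 and 96.9 at 24h with ERKi. By this measure all 6 libraries of 24h were above those of 0h. The difference without ERKi was 4.78 ± 1.33 (SE), with an adjusted p of 0.165 in limma. By fold enrichment Rps20 had 92.1, 94.9 and 93.9 at 0h and 93.6, 96.7 and 98.8 at 24h, which overlapped. By pileup it had 90.3, 85.2 and 80.6 at 0h and 91.7, 94.9 and 93.2 at 24h, without overlap. The largest differences were 9.01 ± 5.15 at Rpl36a and 6.55 ± 3.48 at Rps2 by -log10 p, and -14.4 ± 9.08 at Rpl7 and 10.8 ± 8.83 at Rps2 by fold enrichment (adjusted p of 0.682 to 0.810 in limma). Rps2 had 80.1, 77.1 and 88.8 at 0h and 84.1, 91.3 and 90.3 at 24h by -log10 p, and the groups overlapped.

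**Figure D5:**
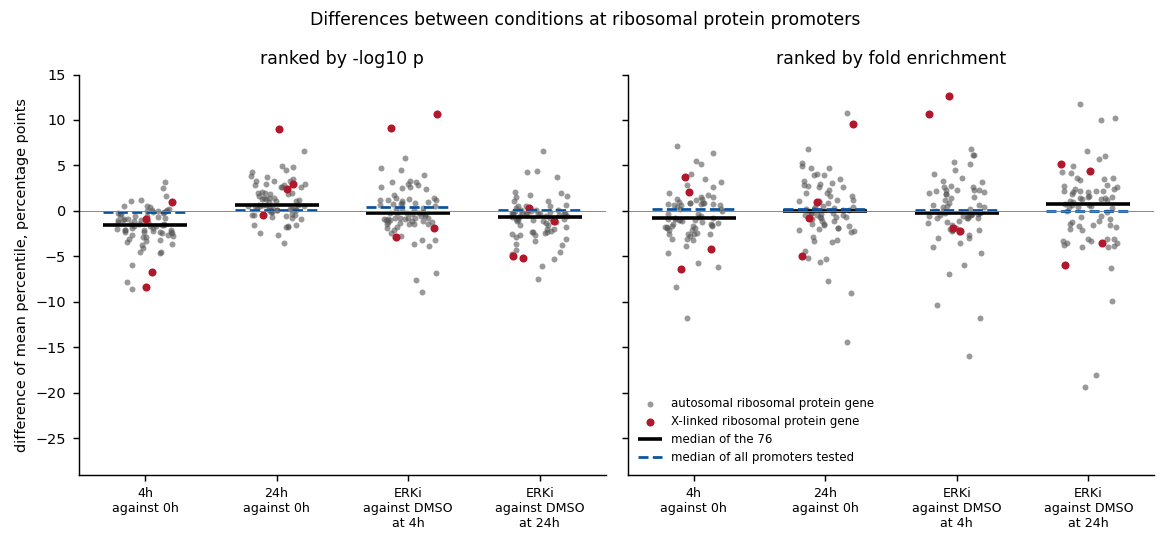
Difference of the mean percentile between conditions (y axis, percentage points) for the 76 ribosomal protein genes by -log10 p and by fold enrichment, 1 point per gene with X-linked genes in red and 4 comparisons along the x axis; the black line is the members' median and the dashed blue line that of all 11060 tested promoters. The medians of the members lie between -1.58 and 0.73 percentage points.

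The second question was whether the mark depends on ERK signalling, so ERKi was set against DMSO at each time. Among known ERK targets, the promoter of the transcription factor gene Etv4 stood at 91.5 ± 2.47 at 24h and 21.6 ± 18.7 with ERKi (n = 3, adjusted p = 0.00221 in limma), and Spry4, an inhibitor of the pathway, at 88.4 ± 3.70 and 32.6 ± 34.1 (adjusted p = 0.0453). At 4h limma called 0 of 76 members by -log10 p and 0 by fold enrichment (0% of all promoters by either). At an unadjusted p under 0.05 there were 8 by -log10 p (4.04% of all), 3 of them higher and 5 lower, and 1 by fold enrichment (2.64% of all). Ranked by -log10 p, the groups did not overlap at 3 members that were higher (5.4% of all) and 6 that were lower (2.68%). The difference was below 0 at 42 of 76, against 40.5% of all promoters, with a median of -0.26 against 0.48 for all promoters. Its sign changed in 5 of 16 alternatives, which were the window ending 100 bp downstream (0.27) and the fits without 4h replicate 2 (0.21), 4h replicate 3 (0.33), ERKi 4h replicate 1 (0.21) or ERKi 4h replicate 2 (0.07). By fold enrichment 41 of 76 were below 0 (47.2% of all) with a median of -0.26, whose sign changed in the same 5 alternatives.

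Rpl6, a large subunit gene, had the smallest unadjusted p at 4h under ERKi, for which it was named. Its percentiles were 97.2, 97.7 and 96.1 with DMSO and 95.3, 92.5 and 92.2 with ERKi. The groups did not overlap, and the difference was -3.66 ± 0.89 (SE), with an adjusted p of 0.987 in limma, and 0.373 with the replicate block. At 24h its values were 96.2, 95.4 and 96.9 with DMSO and 97.4, 96.4 and 98.1 with ERKi. Rpl39 had the largest difference by -log10 p, 10.7 ± 5.47, and Rpl36a followed with 9.11 ± 5.15. By fold enrichment the difference was largest at Rpl18, with Rpl39 next at 12.6 ± 9.27. Rpl18, with 58.4, 63.0 and 68.7 by fold enrichment with DMSO at 4h and 46.5, 51.6 and 44.1 with ERKi, differed by -16.0 ± 7.40, without overlap and with an adjusted p of 1.0 in limma. At 24h Rpl18 had 65.9, 63.6 and 79.5 with DMSO and 63.1, 45.2 and 71.0 with ERKi. Its highest peak by -log10 p was also that of another coding gene in all 15 libraries, so these values cannot be assigned to Rpl18 alone.

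At 24h limma called 0 of 76 members by -log10 p (0.949% of all) and 0 by fold enrichment (0.678%). At an unadjusted p under 0.05 there were 2 by each measure (11.3% of all by -log10 p and 10.2% by fold enrichment). Values of both groups stood apart, ranked by -log10 p, at 2 members that were higher with ERKi (8.43% of all) and 3 that were lower (7.33%). The difference was below 0 at 55 of 76 members, against 47.1% of all promoters, with a median of -0.64 against 0.14. Within replicates 1, 2 and 3 it was 1.03, -3.09 and 0.01, so that replicate 2 alone was low, and without ERKi 24h replicate 2 the median was 0.31 with 28 of 76 below 0, while the other fits without 1 library gave -1.19 to -0.40. By fold enrichment 31 of 76 were below 0 (50.3% of all) and the median was 0.73, which became -1.70 without ERKi 24h replicate 3 and -1.23 without 24h replicate 1. The genes of ribosome biogenesis were lower with ERKi in 28 of 32 cases by -log10 p and 25 of 32 by fold enrichment, with medians of -3.69 and -2.79, and limma called 0 of them. The calls in the related lists were Mrps15, higher at 24h than at 0h (adjusted p = 0.0361 in limma), and Mrpl33 (0.0267) and Eif3f (0.0431), both lower with ERKi at 24h, all by fold enrichment.

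The largest differences at 24h under ERKi were at Rps16 (-7.46 ± 4.52) and Rps9 (6.56 ± 3.06) by -log10 p, and at Rpl7 (-19.4 ± 9.08) and Rps16 (-18.1 ± 7.18) by fold enrichment. Rps9, a small subunit gene, had 83.6, 84.8 and 82.3 with DMSO and 89.2, 86.8 and 94.4 with ERKi, without overlap and with an adjusted p of 0.442 in limma. Rpl7 had 51.6, 53.6 and 76.1 by fold enrichment with DMSO and 34.3, 39.6 and 49.2 with ERKi, and Rps16 had 79.4, 74.8 and 82.3 against 70.7, 49.5 and 62.1. Neither overlapped, and their adjusted p was 0.488 and 0.369 in limma, or 0.0549 and 0.187 with the replicate block. At Rpl7 the 3 values by fold enrichment at 0h were 71.3, 71.8 and 81.4. By this measure alone its order from 0h to 24h and to 24h with ERKi was the same in each replicate. By pileup Rpl7 had 97.8, 96.9 and 96.4 at 0h and 98.0, 97.4 and 98.4 at 24h. With ERKi at 24h its pileup percentiles were 98.0, 97.3 and 97.6. By -log10 p replicate 3 rose from 95.8 at 0h to 97.4 at 24h, while replicates 1 and 2 fell. In 12 of 15 libraries the highest peak of Rpl7 by -log10 p was also the highest of another coding gene.

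The effect of ERKi at 24h was set against that at 4h in the same fit. limma called 0 of 76 members by -log10 p (0.00904% of all promoters) and 0 by fold enrichment (0%). At an unadjusted p under 0.05 there was 1 by each (4.77% of all by -log10 p and 4.3% by fold enrichment), and the smallest adjusted p of a member was 0.377 by -log10 p and 0.999 by fold enrichment. Because same-numbered libraries deviated together, all comparisons were also fitted with the replicate number as a block. Over all promoters the calls by -log10 p then went from 6 to 32 at 4h, from 69 to 216 at 24h and from 105 to 354 for ERKi at 24h, and stayed at 0 for ERKi at 4h. By fold enrichment they went from 8 to 21, from 147 to 361, from 75 to 234, and stayed at 0. Among the 76 ribosomal protein genes the block called 0 in each of the 4 comparisons by both measures. At an unadjusted p under 0.05 and by -log10 p the block gave 10 members at 4h (9.57% of all promoters), 1 at 24h (14.1%), 9 for ERKi at 4h (7.77%) and 6 for ERKi at 24h (18.4%). By fold enrichment it gave 0 (8.43%), 4 (16.8%), 7 (6.39%) and 11 (17.4%). A difference that misses the threshold with 3 libraries a group does not show that the promoters were equal: the median SE of a member's difference was 2.09 percentage points by -log10 p and 4.33 by fold enrichment.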

How the data were processed

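H3K27ac ChIP-seq (antibody ab4729) of 15 NMuMG/E9 libraries was used. Bowtie alignments to mm9 were passed by the authors to MACS2, 1 library at a time. The deposited lists give for each peak the fold enrichment at the summit over local background, the -log10 p, the -log10 q and the summit's offset. No read totals are in the peak lists, so depth is unknown, and the control used for calling is not given in the sources used here.

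Start sites came from GENCODE vM1 (NCBIM37, which is mm9). The highest peak with a summit within 1000 bp of any start of a gene was ranked as a percentile of its library. Pileup was solved from fold enrichment and -log10 p under the Poisson model of MACS2, and all but 22 of 893719 peaks gave a whole number within 0.05. limma 3.58.1 (R 4.3.3, trended prior, 10 residual degrees of freedom) was fitted to the 5 conditions over 11060 promoters with a peak in at least 8 of 15 libraries, with Benjamini-Hochberg adjustment at 0.05, and was tested on simulated data. Same-numbered libraries of different conditions deviated together in 30 of 30 pairs of libraries, each with a correlation above 0.1. The mean correlation was 0.350 by -log10 p and 0.359 by fold enrichment. The number thus pairs the libraries by the data, and it was used as a block in an alternative fit. The labels do not say what the number marks. The largest share of peaks with the same ends in 2 libraries was 0.00746%.

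Genes were named if their mean by -log10 p was among the 5 highest or 5 lowest. They were also named for one of the 2 largest changes in a comparison, for passing the threshold, or from a preset list. That list held 21 members, some with known further roles or disease links. The members and lists were chosen with earlier results of these data known. Alternatives were other windows, start sites, peak thresholds, filters, scalings and priors, and leaving out each library. Scripts ran in Python 3.11.15 (pandas 2.3.3, numpy 2.4.6, scipy 1.17.1, and matplotlib 3.10.9 for plots). Some items are not reported here.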

Additional observations from a re-analysis of the deposited data

How the results depend on the processing

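No member was called by limma in any comparison when 1 library was left out, with the replicate block alone, or under the other windows, scalings, filters and priors tried. The exception was chosen after seeing the data: pileup with the replicate block called 1 member, Rpl26, at 4h, whichever measure it replaced. Percentiles depended on what they were ranked against. Taken among the promoters tested only, the members' median at 0h, 4h, 24h, ERKi 4h and ERKi 24h was 71.9, 64.7, 74.5, 63.3 and 70.6 by -log10 p and 42.0, 41.5, 40.4, 42.0 and 46.2 by fold enrichment, and the median difference by -log10 p was -4.79 at 4h and 2.38 at 24h against 0h. With the window ending 100 bp downstream the medians in the same order were 88.6, 87.3, 90.6, 88.2 and 90.1 by -log10 p and 71.2, 71.5, 71.0, 74.1 and 74.2 by fold enrichment, and 47 of 76 members had a peak in every library. With peaks of a -log10 q of at least 10 they were 90.0, 87.1, 91.6, 86.6 and 89.8, and 75.8, 75.98, 75.3, 75.7 and 77.7. The 500 bp window gave 93.3 at 0h by -log10 p. Pileup gave 90.5 at ERKi 4h in place of -log10 p, and 94.0, 94.4 and 93.3 at 0h, 24h and ERKi 24h in place of fold enrichment. In the shorter promoter starting 100 bp upstream, CACGTG stood in 5.26% of members (6.52% of all promoters), CCAAT in 22.4% (25.7%) and TGAGTCA in 0% (1.71%). TATAAA stood there in 10.5% of members (95% exact binomial interval 4.66 to 19.7%) against 3.03% of all, now outside the interval, and CCGGAAG in 23.7% (14.68 to 34.8%) against 14.72%, now inside it. With RefSeq starts, also chosen after seeing the data, the pyrimidine tract stood in 23.6% at the start and 61.8% within 10 bp. The cause of these shifts was not tested.

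Leaving out 1 library gave median differences by -log10 p of -2.14 to -0.56 at 4h, 0.39 to 1.24 at 24h, -0.87 to 0.33 for ERKi at 4h and -1.19 to 0.31 for ERKi at 24h, and by fold enrichment of -3.13 to 1.67, -2.37 to 2.02, -2.74 to 2.24 and -1.70 to 2.26. Calls over all promoters without 1 library ranged by -log10 p from 1 to 10, 28 to 70, 0 to 3 and 39 to 169, and by fold enrichment from 3 to 15, 44 to 177, 0 to 1 and 19 to 110. The other settings included pileup in place of either measure. For -log10 p and its replacement, calls ranged from 0 to 141, 13 to 595, 0 to 5 and 26 to 691. For fold enrichment and its replacement, they ranged from 0 to 141, 33 to 595, 0 to 5 and 14 to 691. All of these upper ends came from pileup with the replicate block, not from -log10 p or fold enrichment. Log2 values are no percentiles, so that alternative has no median percentile. The reads at exons that resemble processed copies, and the depth of the libraries, limit what the ranks can show.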
